A study of Mus musculus with 6 samples.

Results

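The non-classical (class Ib) genes of the mouse major histocompatibility complex (MHC) were followed in 6 tumours of HM1, a mouse ovarian cancer cell line. The 10 genes were taken by symbol and all were found among the 57462 genes of the files: H2-Q1, H2-Q2, H2-Q4, H2-Q6, H2-Q7, H2-Q10, H2-T22, H2-T23, H2-T24 and H2-M3. They were chosen for what they encode, but with earlier results of these data known. The shControl group (3 tumours, genotype and treatment labelled wild type) bore a control hairpin, and the shST3GAL3 group (3 tumours, labelled ST3GAL3 knockdown) a hairpin against the sialyltransferase ST3GAL3. All were sampled from an early tumour model, as whole tissue that holds tumour and host cells. Mouse strain, age, time, hairpin sequence and number of clones are not in the labels. Nor is it said that each tumour is from its own mouse, so the p-values cover only the spread among these libraries, and that spread could be technical. The study asked how ST3GAL3 in the tumour cells bears on anti-tumour immunity.

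Classical class I molecules sit on nearly all nucleated cells and show peptides to CD8 T cells. The non-classical molecules share their build, a heavy chain that in most cases pairs with beta-2 microglobulin (B2m), but vary less between individuals and have narrower tasks. Qa-1, encoded by H2-T23, shows a leader peptide of classical class I chains to the CD94/NKG2 receptors of NK and T cells, while H2-M3 shows peptides that begin with formyl-methionine, as made by bacteria and mitochondria. H2-T22 is seen by a subset of gamma-delta T cells without a peptide. H2-Q6 and H2-Q7 belong to the Qa-2 group, held in the membrane by a lipid anchor, and H2-Q10 is a secreted molecule made mostly by the liver. Like the classical genes, many class Ib genes are raised by interferons and by the class I transactivator NLRC5, through a promoter module that holds an interferon-stimulated response element (ISRE), a kappa B site and a region bound by CREB and NF-Y factors.

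The promoters of the members show how far this module is shared. RefSeq windows on the build GRCm38.p6, from 250 bases before to 50 after the gene start, were matched by symbol for 8 of the 10 members. The 6 windows printed here cover the members with the most transcript among those matched, the more abundant Qa-2 gene and the member with the least transcript. They lie on chromosome 17 at chr17:35342057-35342356, plus strand (H2-Q2), chr17:35379367-35379666, plus strand (H2-Q4), chr17:35438905-35439204, plus strand (H2-Q7), chr17:36042693-36042992, minus strand (H2-T22), chr17:36032652-36032951, minus strand (H2-T23) and chr17:37269984-37270283, plus strand (H2-M3). This is another build than the GRCm39 of the files. Capitals mark matches on either strand to TTTCNNTTC (short ISRE), the same with 1 more T before the final C (full ISRE), GGGNN followed directly by TTNCC (kappa B), TGACG (the core of a CREB site) and CCAAT (the NF-Y box), where the matches of H2-Q4 to kappa B overlap each other. The motifs were chosen with these windows in view.
H2-Q4: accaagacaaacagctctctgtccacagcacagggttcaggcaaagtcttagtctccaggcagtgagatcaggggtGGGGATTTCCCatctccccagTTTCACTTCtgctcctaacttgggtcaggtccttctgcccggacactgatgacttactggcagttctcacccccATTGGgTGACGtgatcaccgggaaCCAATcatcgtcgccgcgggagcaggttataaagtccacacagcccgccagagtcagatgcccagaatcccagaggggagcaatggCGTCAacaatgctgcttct
H2-Q7: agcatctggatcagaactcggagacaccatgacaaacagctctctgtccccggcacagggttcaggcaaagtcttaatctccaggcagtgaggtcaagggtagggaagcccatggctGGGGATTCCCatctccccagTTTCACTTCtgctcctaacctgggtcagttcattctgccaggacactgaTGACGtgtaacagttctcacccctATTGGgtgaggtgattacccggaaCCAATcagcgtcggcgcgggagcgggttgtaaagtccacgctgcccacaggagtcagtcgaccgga
H2-T23: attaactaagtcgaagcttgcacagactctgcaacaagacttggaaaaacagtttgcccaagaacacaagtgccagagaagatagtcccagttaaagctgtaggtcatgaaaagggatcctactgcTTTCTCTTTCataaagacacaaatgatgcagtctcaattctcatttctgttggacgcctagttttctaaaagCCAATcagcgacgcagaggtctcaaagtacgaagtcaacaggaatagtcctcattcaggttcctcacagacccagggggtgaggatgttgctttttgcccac
H2-T22: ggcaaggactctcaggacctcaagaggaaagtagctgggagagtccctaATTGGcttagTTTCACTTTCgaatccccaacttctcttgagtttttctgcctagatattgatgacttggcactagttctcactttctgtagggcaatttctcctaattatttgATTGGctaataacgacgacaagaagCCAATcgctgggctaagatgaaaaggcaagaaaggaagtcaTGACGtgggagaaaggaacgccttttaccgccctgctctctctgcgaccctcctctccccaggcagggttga
H2-M3: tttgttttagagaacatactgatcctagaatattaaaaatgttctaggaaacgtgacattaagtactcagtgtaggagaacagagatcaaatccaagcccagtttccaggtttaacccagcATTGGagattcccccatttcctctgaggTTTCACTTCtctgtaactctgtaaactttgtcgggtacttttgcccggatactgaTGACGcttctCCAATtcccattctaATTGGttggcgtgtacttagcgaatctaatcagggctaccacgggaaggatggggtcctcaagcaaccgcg
H2-Q2: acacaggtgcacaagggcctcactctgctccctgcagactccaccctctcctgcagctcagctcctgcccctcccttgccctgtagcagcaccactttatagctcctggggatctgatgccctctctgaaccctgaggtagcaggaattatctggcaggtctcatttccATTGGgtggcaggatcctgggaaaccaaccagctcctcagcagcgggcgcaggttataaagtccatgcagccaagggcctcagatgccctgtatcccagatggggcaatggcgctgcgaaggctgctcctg
An ISRE in either form was found in 7 of the 8 member windows, and in 3403 of all 32851 windows of this length. Its first base lay 153 bases before the start in H2-Q4, 113 in H2-Q7, 124 in H2-T23, 191 in H2-T22 and 101 in H2-M3. The window without one was that of H2-Q2. The short form was held by 5 member windows (7.52% of all windows) and the full form by 2, those of H2-T22 and H2-T23 (3.44%). A kappa B match was found in 3 of 8 (4.79% of all), those of H2-Q4, H2-Q6 and H2-Q7, a TGACG in 4 (20.8%) and a CCAAT in 7 (37.4%). An ISRE together with the other 3 motifs stood in H2-Q4 and H2-Q7, and in 0.0548% of all windows. A match describes letters in the window and is no evidence of binding.

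St3gal3 was lower in the shST3GAL3 tumours (7.57 ± 0.838 TPM, SD, n = 3) than in the shControl tumours (13.9 ± 0.127 TPM), with no overlap and a log2 fold change of -0.80 (SE 0.11, limma adjusted p = 0.35), which checks the labels. TPM is transcript abundance corrected for gene length and scaled to the same total in each library, so levels can be compared between genes, but it keeps no read number and the depth behind each value is unknown. Keratin transcripts of the tumour cells were abundant (Krt8 at 728 TPM or more in each library), while the epithelial markers Epcam and Pax8 stood at 1.17 and 1.65 TPM or less. The library shST3GAL3 1 stood apart, with the highest summed markers of leukocytes, fibroblasts and endothelium and the lowest summed epithelial markers of the 6. In such bulk tissue, more cells of a type and more transcript per cell cannot be told apart.

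The class Ib genes differed widely in level. In the shControl tumours H2-Q1 was highest (544 ± 20.2 TPM, SD, n = 3), then H2-T23 (367 ± 27.5), H2-T22 (194 ± 8.06), H2-Q4 (183 ± 10.07), H2-M3 (36.2 ± 0.780) and H2-Q7 (23.7 ± 2.17). H2-T24 (7.50 ± 0.608 TPM), H2-Q6 (6.28 ± 1.96) and H2-Q10 (4.43 ± 1.08) followed, and H2-Q2 was at 0.617 ± 0.244 TPM. H2-T22 and H2-Q4 overlapped in their shControl ranges, as did H2-T24 with H2-Q6 and H2-Q6 with H2-Q10. Within each shControl tumour, however, H2-T22 was above H2-Q4 and H2-Q6 above H2-Q10. H2-T24 and H2-Q6 changed places in shControl 2 (6.82 and 8.54 TPM), so their order is not fixed. The other neighbours in the order were separated in all 3 shControl tumours. In the shST3GAL3 tumours the order of the means was the same, with overlap also between H2-M3 and H2-Q7 and between H2-Q4 and H2-T22. Within shST3GAL3 1, H2-Q4 (246.31 TPM) was just above H2-T22 (245.92 TPM), and H2-Q7 (58.43 TPM) was above H2-M3 (52.67 TPM). The classical heavy chains stood above all of them, H2-K1 at 3171 ± 89.3 and H2-D1 at 1238 ± 21.7 TPM in shControl.

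**Figure D1:**
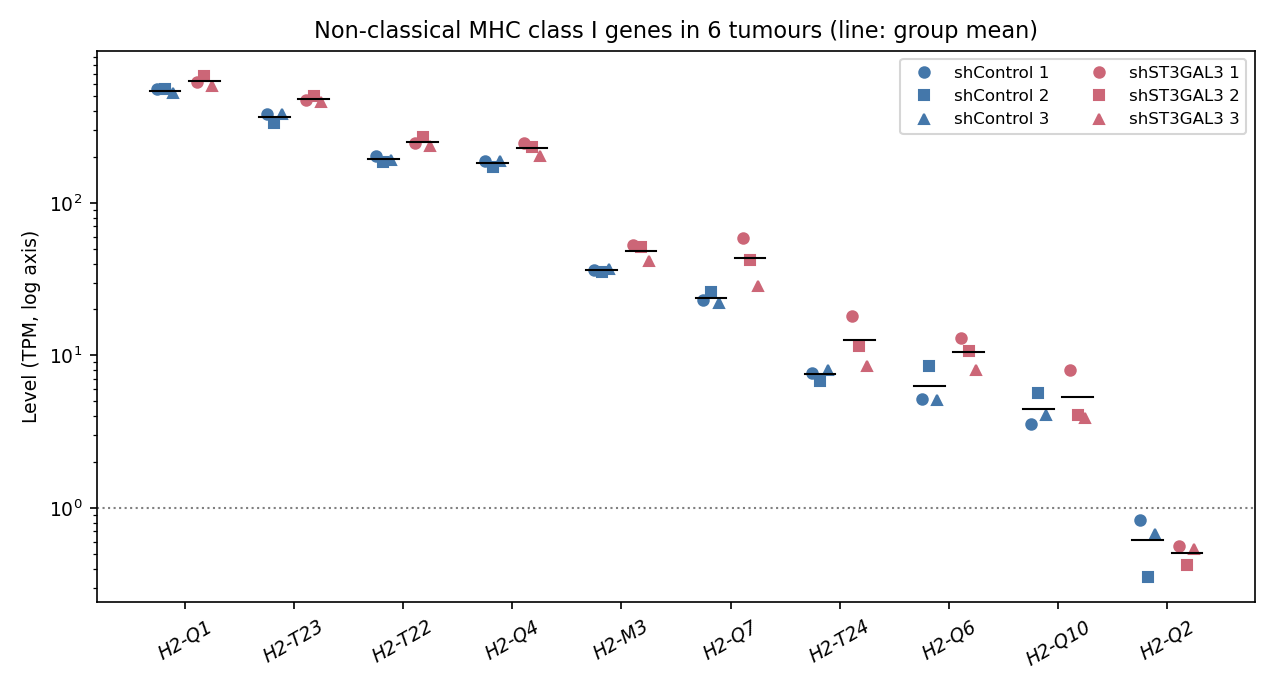
Level of each of the 10 class Ib genes in TPM on a log axis, with 1 point for each of 3 shControl (blue) and 3 shST3GAL3 (red) tumours and a line at each group mean. The dotted line marks 1 TPM, which the 9 tested genes exceeded in every tumour and H2-Q2 in none. For H2-Q1, H2-T23, H2-T22, H2-Q4, H2-M3, H2-Q7 and H2-T24 the red points lie above the blue ones.

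The 9 class Ib genes that could be tested had higher means in the shST3GAL3 tumours, with modest fold changes, and none passed the test over all genes. The limma model (on log2(TPM + 1), adjusted by Benjamini-Hochberg over 14207 genes with at least 1 TPM in 3 or more libraries) tested 9 of the 10. H2-Q2 was left out by the filter, and the 9 passed it in both groups. At an adjusted p under 0.05, 0 of 9 were called, against 0.00704% of all genes (1 gene). At an unadjusted p under 0.05, 8 of 9 were higher (9.19% of all genes), the exception being H2-Q10, and 0 lower (3.78%). In 7 of 9 the lowest shST3GAL3 value exceeded the highest shControl value (15.7% of all genes), and in 0 it was the reverse (7.76%). All 9 log2 fold changes were positive (52.7% of all genes), with a median of 0.38 beside 0.013 over all genes tested. The count of 8 was 5 without shControl 1, 2 or 3 (5.82%, 4.47% and 4.85% of all genes) and 5 without shST3GAL3 2 (7.62%). It was 6 without shST3GAL3 1 (8.43%), the library that stood apart, where the median was 0.36, and 8 without shST3GAL3 3 (12.6%). Of all genes with an unadjusted p under 0.05, 70.8% were higher, but 54.1% after median-ratio scaling and 47.8% after quantile normalization, under which 6 of 9 members still had an unadjusted p under 0.05 (6.82% and 6.19% of all genes). The sign of the 9 members was positive under both scalings.

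H2-T23 (ENSMUSG00000067212) encodes the heavy chain of Qa-1, the ligand of CD94/NKG2. The shControl tumours 1, 2 and 3 held 382.37, 335.07 and 382.93 TPM, and the shST3GAL3 tumours 1, 2 and 3 held 470.58, 501.12 and 456.73 TPM. Every shST3GAL3 tumour was above every shControl tumour. The mean was 129.8% of the control, with a log2 fold change of 0.38 (SE 0.08, 95% interval 0.19 to 0.57), an unadjusted p of 0.00253 and an adjusted p of 0.38 in limma.

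The receptor genes for Qa-1 were far less abundant. Klrc1, which encodes the inhibitory NKG2A, was measured at 5.20, 3.54 and 2.73 TPM (shControl 1 to 3) against 6.56, 9.44 and 5.56 TPM (shST3GAL3 1 to 3), without overlap (log2 fold change 0.77, SE 0.25, limma adjusted p = 0.38). For its partner Klrd1 (CD94), named for its role after its values were seen, the groups overlapped, at 6.41 ± 1.69 and 8.14 ± 1.71 TPM (SD, n = 3). The activating receptor gene Klrc2 (NKG2C), also named after its values were seen, overlapped too, at 5.23 ± 1.93 and 7.47 ± 1.86 TPM.

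H2-T22 (ENSMUSG00000056116), the ligand of a gamma-delta T cell subset, had 202.22, 186.31 and 192.02 TPM (shControl 1 to 3) against 245.92, 268.43 and 235.31 TPM (shST3GAL3 1 to 3). The groups did not overlap, and the highest value was that of shST3GAL3 2, as for H2-T23. Its log2 fold change was 0.37 (SE 0.08, 95% interval 0.19 to 0.55), with the smallest unadjusted p of the members, 0.00216, and an adjusted p of 0.38 in limma. H2-T10, a close relative that gamma-delta T cells also see, overlapped between the groups at 4.16 ± 0.242 and 5.56 ± 1.61 TPM (SD, n = 3). The delta chain constant gene Trdc, of the cells that would see both, was at 0.55 TPM or less in each library and was not tested. Near this floor it had 0.06, 0.09 and 0.15 TPM (shControl 1 to 3) against 0.55, 0.26 and 0.30 TPM (shST3GAL3 1 to 3), without overlap.

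H2-M3 (ENSMUSG00000016206), which shows formylated peptides, had shControl values close to each other, 36.23, 35.41 and 36.97 TPM. The knockdown tumours 1, 2 and 3 gave 52.67, 51.68 and 41.64 TPM, all above the control range. The lowest of these, shST3GAL3 3, was still separated from the highest shControl value. The log2 fold change was 0.41 (SE 0.11, 95% interval 0.16 to 0.66), with an unadjusted p of 0.00685 and an adjusted p of 0.38 in limma.

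The Qa-2 genes spread widely between the shST3GAL3 tumours. For H2-Q7 (ENSMUSG00000060550) the control tumours 1, 2 and 3 gave 23.03, 26.13 and 21.94 TPM, and the knockdown tumours 58.43, 42.5 and 28.69 TPM. The groups did not overlap, but shST3GAL3 3 lay close to the control range and shST3GAL3 1 far above it. Its log2 fold change was 0.79 (SE 0.24, 95% interval 0.21 to 1.36), with an adjusted p of 0.38 in limma, and 0.54 without shST3GAL3 1. H2-Q6 (ENSMUSG00000073409) had 5.17, 8.54 and 5.13 TPM (shControl 1 to 3) against 12.9, 10.75 and 7.98 TPM (shST3GAL3 1 to 3). Here shControl 2 exceeded shST3GAL3 3, so the groups overlapped (log2 fold change 0.67, SE 0.24, adjusted p = 0.38 in limma). H2-Q7 and H2-Q6 share sequence: of the 100-base windows of the longest coding H2-Q7 transcript in GENCODE M21, 11.7% occur unchanged in H2-Q6, so reads could have been divided between them and both levels are uncertain.

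H2-Q1 and H2-Q4 are less studied members of the Q region. H2-Q1 (ENSMUSG00000079507), the most abundant, had 555.48, 556.63 and 521.13 TPM (shControl 1 to 3) against 616.58, 680.29 and 583.19 TPM (shST3GAL3 1 to 3). The groups did not overlap, and its log2 fold change of 0.20 (SE 0.08, 95% interval 0.01 to 0.39, adjusted p = 0.38 in limma) was the smallest among the non-overlapping members. H2-Q4 (ENSMUSG00000035929) reached 187.64, 171.15 and 189.4 TPM in the controls and 246.31, 233.35 and 202.63 TPM in the knockdown tumours. Again the knockdown values were all higher than the control range (log2 fold change 0.31, SE 0.09, adjusted p = 0.38 in limma).

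H2-T24 (ENSMUSG00000053835), of which little is known, was low, with 7.69, 6.82 and 7.99 TPM (shControl 1 to 3) against 17.99, 11.52 and 8.46 TPM (shST3GAL3 1 to 3). The groups were separated by less than 1 TPM, and shST3GAL3 1 held most of the difference. The log2 fold change was 0.63 (SE 0.25, adjusted p = 0.38 in limma), and 0.36 without shST3GAL3 1. H2-Q10 (ENSMUSG00000067235), the secreted liver molecule, gave 3.57, 5.64 and 4.09 TPM in the controls and 8.06, 4.05 and 3.87 TPM in the knockdown tumours. The groups overlapped, its log2 fold change was 0.18 (SE 0.28, adjusted p = 0.78 in limma) and it was negative (-0.11) without shST3GAL3 1, so no direction can be given. Liver markers were near 0, with Alb, Apoa1, Ttr and Serpina1a together at 0.32 TPM or less in each library. H2-Q2 (ENSMUSG00000091705), under 1 TPM throughout, gave 0.83, 0.35 and 0.67 TPM in the controls and 0.56, 0.42 and 0.54 TPM in the knockdown tumours, with overlap.

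**Figure D2:**
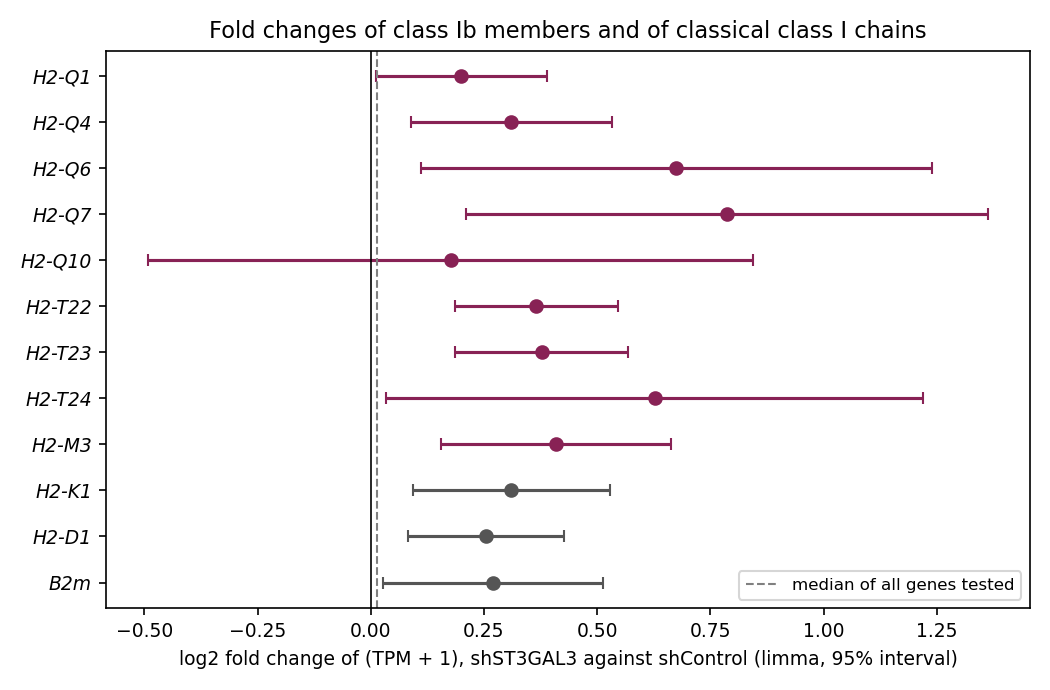
Log2 fold change of (TPM + 1) in shST3GAL3 against shControl tumours (horizontal axis, limma, bars give the 95% interval) for the 9 tested class Ib genes (purple) and for H2-K1, H2-D1 and B2m (grey). The values of the members run from 0.18 for H2-Q10, the only interval that includes 0, to 0.79 for H2-Q7, and the dashed line marks the median of all genes tested, 0.013.

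The classical chains had fold changes within the range of the class Ib genes. The log2 fold change was 0.31 (SE 0.09) for H2-K1, 0.26 (SE 0.07) for H2-D1 and 0.27 (SE 0.10) for B2m, each with an adjusted p of 0.38 in limma and no overlap between the groups. Of the 14 genes of the classical and peptide-loading list, which holds these 3, all were tested. A positive log2 fold change was found in 13 (52.7% of all genes), with a median of 0.36 over the list. At an unadjusted p under 0.05, 11 were higher (9.19% of all genes), and 0 had an adjusted p under 0.05. The members summed to 1366 ± 36.2 TPM in shControl and 1701 ± 120.2 TPM in shST3GAL3 tumours (SD, n = 3). As a percent of the summed heavy chains (the 10 members, H2-K1 and H2-D1) this was 23.7 ± 0.554 and 23.9 ± 0.395, a difference of 0.230 percentage points, smaller than the SD of either group. It was -0.0782 without shControl 2, 0.459 without shControl 3, 0.458 without shST3GAL3 2, 0.118 without shST3GAL3 1 and 0.115 without shST3GAL3 3, so its sign is not fixed. In the single libraries the share lay between 23.04% and 24.1%, and the groups overlapped.

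**Figure D3:**
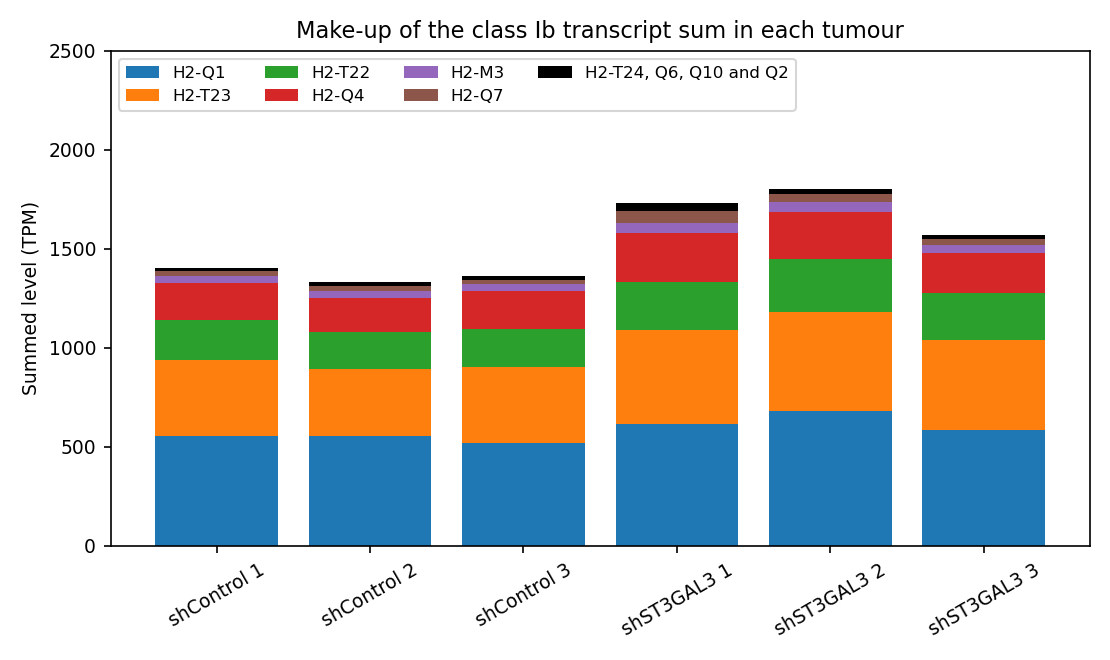
Summed TPM of the 10 class Ib genes in each tumour, stacked by gene, with the 4 lowest genes joined in black. The sum runs from 1332 to 1404 TPM in the shControl and from 1569 to 1804 TPM in the shST3GAL3 tumours, and H2-Q1 and H2-T23 make up most of it.

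Set against B2m in the same library, which removes any scaling between libraries, 1 of the 9 tested members was separated between the groups. The share of all genes separated in such a ratio was not worked out, so this count has no background. The log2 ratio to B2m differed by 0.11 for H2-T23, 0.10 for H2-T22, 0.04 for H2-Q4 and -0.07 for H2-Q1 (shST3GAL3 minus shControl), each with overlap. For H2-T23 it was 0.0641 without shST3GAL3 3. For H2-Q1 it was -0.0187 without shControl 2, -0.0388 without shST3GAL3 2 and -0.113 without shControl 3. For H2-Q4 it turned to -0.0357 without shST3GAL3 1 and was 0.113 without shST3GAL3 2. It differed by 0.54 for H2-Q7, 0.49 for H2-Q6 and 0.42 for H2-T24, also with overlap. Without shST3GAL3 1, the library that stood apart, these were 0.275, 0.315 and 0.112, and H2-Q6 reached 0.770 without shControl 2. H2-M3 was the member without overlap, at -7.11, -7.03 and -7.06 in shControl and -6.76, -7.01 and -6.99 in shST3GAL3 tumours 1, 2 and 3 (difference 0.15, and 0.0697 without shST3GAL3 1). The exact two-sided permutation p for H2-M3 was 0.1, the smallest that 3 against 3 libraries allow, among 9 ratios tested. After Benjamini-Hochberg adjustment over these 9 permutation tests it was 0.45. With H2-K1 as the reference H2-M3 overlapped and H2-Q1 did not, at a difference of -0.11 (exact permutation p = 0.1).

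The members did not follow the tumours alike. H2-Q1, H2-T22 and H2-T23 were highest in shST3GAL3 2, as were H2-K1 and B2m, whereas H2-Q4, H2-Q6, H2-Q7, H2-Q10, H2-T24 and H2-M3 were highest in shST3GAL3 1, as was H2-D1 by a small margin (1536.4 against 1531.93 TPM). Relative to the shControl mean on the log2(TPM + 1) scale, H2-Q7 stood at 1.27, 0.82 and 0.27 in shST3GAL3 1, 2 and 3, and H2-T24 at 1.16, 0.56 and 0.16. H2-T23 stood at 0.36, 0.45 and 0.32, a far narrower range.

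**Figure D4:**
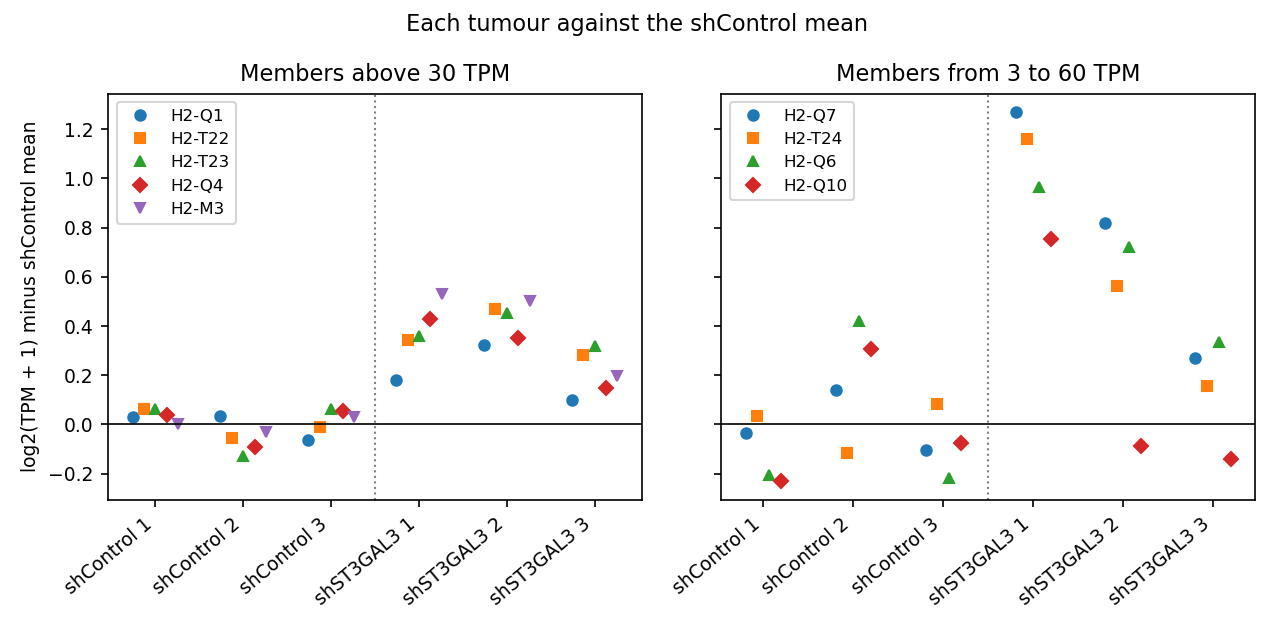
Difference of each tumour from the shControl mean on the log2(TPM + 1) scale, for the 5 more abundant members (left) and for the 4 lower ones (right), with the groups parted by a dotted line. On the left the shST3GAL3 values lie between 0.10 and 0.53, while on the right they reach 1.27 in shST3GAL3 1 and are 0.335 or less in shST3GAL3 3.

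Summed markers of most host cell types had higher means in the shST3GAL3 tumours. The leukocyte markers (Ptprc, Coro1a and Laptm5) summed to between 219 and 251 TPM in shControl tumours and to 509, 357 and 275 TPM in shST3GAL3 1, 2 and 3. This falling order is that of H2-Q4, H2-Q6, H2-Q7, H2-Q10, H2-T24 and H2-M3, and of H2-D1, but not of H2-Q1, H2-T22 and H2-T23. It is not particular to leukocytes. The summed macrophage, dendritic cell, T cell, NK cell, fibroblast, endothelial, B and plasma cell, erythroid and handling stress markers fell in it too. Those of neutrophils, of adipocytes with muscle and of liver (near 0) did not, nor did the epithelial markers. The 8 macrophage and monocyte markers summed to between 1084 and 1257 TPM in shControl and between 1269 and 2281 TPM in shST3GAL3 tumours, and all 8 had positive log2 fold changes. For the 6 T cell markers the sums were 51.3 to 74.0 and 63.0 to 132 TPM, for the 7 fibroblast markers 622 to 1013 and 1171 to 6228 TPM and for the 7 endothelial markers 51.9 to 71.4 and 92.6 to 252 TPM. All T cell, fibroblast and endothelial markers tested had positive log2 fold changes, as had 52.7% of all genes. The 4 NK cell markers summed to between 10.55 and 11.04 TPM and between 9.67 and 15.2 TPM. Epithelial markers summed to between 3209 and 3690 TPM in shControl and between 1782 and 3214 TPM in shST3GAL3 tumours, and 3 of the 6 tested had a positive log2 fold change. The B and plasma cell markers summed to between 3.00 and 42.7 TPM and between 38.4 and 3864 TPM. Erythroid markers summed to between 121 and 164 TPM in shControl and between 185 and 318 TPM in shST3GAL3 tumours, with 4 of 4 tested positive. The 5 neutrophil markers, 3 of them positive, summed to between 85.5 and 127 TPM and between 59.7 and 334 TPM. Genes of the handling stress response, such as Fos, summed to between 316 and 354 TPM and between 408 and 655 TPM, with 9 of 9 positive. The sums did not overlap, but of the 9 genes only 3 were separated upward (15.7% of all genes), and Fos was not. The part of these cells and of handling in the class Ib values was not tested.

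Regulators of class I transcription were counted from a list of 16 genes, all tested. Of these 11 had positive (52.7% of all genes) and 5 negative log2 fold changes, with a median of 0.16. At an unadjusted p under 0.05, 7 were higher (9.19% of all genes) and 0 lower (3.78%), and 0 had an adjusted p under 0.05. The groups were separated upward for 8 (15.7% of all genes) and downward for 1 (7.76%). The interferon-responsive factor genes Irf1 (0.57, SE 0.12), Irf9 (0.40, SE 0.11) and Irf2 (0.27, SE 0.08) did not overlap between the groups (log2 fold changes, limma adjusted p = 0.38 for each). Nlrc5, the class I transactivator, named for its role after its values were seen, stood at 34.0 ± 1.92 and 40.5 ± 3.30 TPM (SD, n = 3; log2 fold change 0.25, SE 0.09). Rfx5 and Nfyb, of the partner complexes RFX and NF-Y, had log2 fold changes of -0.08 (SE 0.11) and -0.02 (SE 0.10), again named after their values were seen. The 1 gene separated downward was Rfxap, also of RFX and named after its values were seen (-0.28, SE 0.14, limma adjusted p = 0.40). Its margin was small, from 18.68 TPM in shControl 1 to 18.54 TPM in shST3GAL3 1.

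The other class Ib genes of the MHC were mostly at low levels. Of 21 further Q, T and M region genes listed, 16 were found by symbol, and H2-Q8 and H2-Q9 were among those not found. Whether reads of H2-Q8 and H2-Q9 were counted under other Q genes was not tested. Of the 16 found, 7 were at 0 in every library and 3 were abundant enough to test, none of these 3 with an adjusted p under 0.05. H2-Q5 stood at 4.30 ± 0.654 and 6.92 ± 1.77 TPM (SD, n = 3) without overlap (log2 fold change 0.56, SE 0.20). H2-Bl, too low to test and named after its values were seen, was separated the other way, with 1.28, 1.49 and 0.83 TPM (shControl 1 to 3) against 0.21, 0.41 and 0.70 TPM (shST3GAL3 1 to 3). H2-M2 ranged from 16.82 to 60.05 TPM, with its highest and lowest values both in shST3GAL3 tumours. From a list of receptor genes for class I and Ib molecules 12 were tested. The list also holds Fpr1 and Klrk1, receptors of other ligands, and both are counted among the 12. Fpr1 is named only to define the list. All 12 had positive log2 fold changes (52.7% of all genes), with a median of 0.41. At an unadjusted p under 0.05, 3 were higher (9.19% of all genes). Among them Pirb, an inhibitory receptor of myeloid cells for class I molecules, stood at 18.4 ± 1.26 and 32.4 ± 10.62 TPM without overlap (0.74, SE 0.21, limma adjusted p = 0.38).

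By the likeness of their log2 values to the mean profile of the 9 tested members, over 6 libraries and 12159 candidate genes, Exoc3l (Pearson's r = 0.998), the beta globin gene Hbb-bs (0.997), Synj1 (0.996), Clec4a1 (0.995) and the immunoproteasome gene Psmb8 (0.994) came first. H2-D1 reached 0.956 (rank 327), H2-K1 0.867 (rank 1583) and B2m 0.769 (rank 2504). The mean profile was taken without scaling the members to a common spread, so widely spread ones such as H2-Q7 weigh more than H2-T23. With 6 libraries in 2 groups many genes reach high values, so these are listed as a description.

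Sequence shared with other genes limits some of these levels. Taking the longest coding transcript of each gene in GENCODE M21 and its 100-base windows, 16.4% for H2-Q7, 14.2% for H2-T22, 13.1% for H2-Q1, 10.8% for H2-Q6 and 7.28% for H2-T23 occur unchanged in any transcript of another gene. For H2-T22 the chief sharer was H2-T10 (9.81%). The share was 2.66% for H2-Q4 and 2.06% for H2-Q10, and 0 windows were shared for H2-T24, H2-M3 and this transcript of H2-Q2. Another transcript of H2-Q2 holds 5.51% of the windows of H2-Q1. These sequences are those of the C57BL/6J reference, and class I genes differ between mouse strains. How far the strain of the HM1 cells and of the hosts bears on these levels was not tested.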

How the data were processed

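RNA sequencing of 3 shControl and 3 shST3GAL3 tumours was analysed, with groups taken from the sample titles. TRIzol extraction, DNase I treatment and a standard Illumina library are recorded per the labels' protocols. The deposited tables give 1 TPM value per gene and library, named as TPM because every column adds up to the same total and most values carry decimals. Per the submitters' processing notes the authors used fastp, HISAT, RSEM and the build GRCm39, whose settings, versions, annotation and strand handling were not given in the sources used here. Without read numbers the depth is unknown, and precision rests on the replicates.

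Group differences were fitted by limma 3.58.1 (R 4.3.3), trend option on, over log2 of TPM plus 1, for genes reaching 1 TPM in at least 3 libraries. The threshold was 0.05 after Benjamini-Hochberg adjustment over all of them. Fold changes on this scale understate changes of low genes. The fit was tested on simulated data. Errors are the SD for TPM and the moderated SE for fold changes. Members and lists were chosen with earlier results of these data known, so no test over a list was made. Named are all members, St3gal3, H2-K1, H2-D1 and B2m, up to 4 genes of smallest p from each other list and the 5 genes most like the members. Any further gene is said to be named after its values were seen, or is a defining marker. Alternatives were other pseudocounts, filters and scalings, library weights, a replicate block and leaving out each library. Some genes of the lists are counted but not reported by name here.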

Additional observations from a re-analysis of the deposited data

How the results depend on the processing

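The count of 0 members with an adjusted p under 0.05 held in all 14 other settings, in which the smallest adjusted p of any member lay between 0.134 and 0.662. The median log2 fold change of the 9 members ranged from 0.32 (quantile normalization) to 0.41. Over all genes 1 was called, against 2 with a pseudocount of 0.1 or 0.5, 0 with at least 1 TPM in all libraries, 8 with library weights and between 0 and 2 when 1 library was left out. The 8 members with an unadjusted p under 0.05 were 5 without any 1 shControl library or without shST3GAL3 2, 6 without shST3GAL3 1 and 8 without shST3GAL3 3. The sign of H2-Q10 turned with library weights (-0.0315) and without shST3GAL3 1 (between -0.11 and 0.33 over the libraries left out). Its log2 ratio to B2m, -0.06, was 0.16 without shControl 2, 0.18 without shST3GAL3 2, 0.05 without shST3GAL3 3 and -0.42 without shST3GAL3 1. The ratio of H2-Q4, 0.04, was -0.0357 without shST3GAL3 1 and at most 0.11 (without shST3GAL3 2). For these turns of sign the cause was not tested. With the replicate number as a block 1 gene and 0 members were called. Deviations of same-numbered libraries correlated at 0.01, -0.08 and 0.04, and not every library correlated best with its own number. The numbers were therefore not treated as pairs. The labels do not say whether the samples were paired, and these correlations cannot exclude it. Depth is unknown, and the lowest members (H2-Q2, H2-Q10, H2-Q6 and H2-T24) are those whose precision it would limit most.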

Other observations

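Class I-like genes encoded outside the MHC did not share a direction. Of 14 listed, 9 were tested, 5 with positive and 4 with negative log2 fold changes (median 0.10), and limma called 0 at an adjusted p under 0.05 and 1 at an unadjusted p under 0.05 (9.19% of all genes were higher at that level). That gene was Hfe, a regulator of iron uptake, with 9.45, 9.85 and 7.61 TPM (shControl 1 to 3) against 18.13, 15.93 and 10.89 TPM (shST3GAL3 1 to 3), without overlap (log2 fold change 0.66, SE 0.20, adjusted p = 0.38). Cd1d1, which shows lipids to NKT cells, stood at 3.76 ± 0.690 and 6.09 ± 2.69 TPM (SD, n = 3) with overlap. The NKG2D ligand genes had differences of either sign, with Raet1d at 2.01 ± 0.159 and 3.44 ± 1.67 TPM and Raet1e at 19.6 ± 1.56 and 17.6 ± 1.91 TPM. The receptor gene Klrk1, which encodes NKG2D, overlapped between the groups at 10.8 ± 2.00 and 13.3 ± 5.39 TPM and is named after its values were seen.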
